A study of Homo sapiens with 4 samples.

Results

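Trophoblast and amnion are extraembryonic tissues. The 10 genes described here, ELF5, GCM1, TP63, EPAS1, VGLL1, CGA, PGF, GABRP, VTCN1 and KRT7, are widely used as markers of these tissues. They are 10 of the 20033 protein-coding genes of the annotation. Each gene was followed through the positions that chromatin immunoprecipitation sequencing (ChIP-seq) placed within 100 kb of its 5′ end, inside its gene body, or under its name. The cells were H1 human embryonic stem cells (hESCs), an established pluripotent line, kept in mTeSR1 on Matrigel and given BMP4 at 50 ng/ml for 6 h in every sample. The series held 4 samples, 2 GATA3 ChIP replicates and 2 input chromatin samples, and the peak list of each ChIP replicate was analysed. The inputs served as controls when the peaks were called, and no GATA3 ChIP from untreated cells was compared here, so the values describe where GATA3 was found after BMP4 and not what BMP4 changed. The lists hold binding positions and no RNA, and expression of the markers was not analysed here. Everything below comes from 1 cell line at 1 time point.

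GATA3 is a zinc finger transcription factor that recognises DNA sequences of the form WGATAR, which covers AGATAA, the same letters with G at the end, and both of these with T at the start. GATA3 is present in the trophectoderm, the outer layer of the blastocyst, from which trophoblast descends. BMP4 treatment of human pluripotent cells is commonly used to obtain trophoblast-like and amnion-like cells. Among the markers, ELF5, GCM1, TP63 and EPAS1 are transcription factors and VGLL1 is a cofactor of TEAD factors. CGA and PGF are secreted, GABRP and VTCN1 are membrane proteins, and KRT7 is an intermediate filament keratin of simple epithelia.

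Of the 10 markers, 5 had at least 1 GATA3 region found in both replicates: CGA with 3, KRT7 and VTCN1 with 2 each, and TP63 and GABRP with 1 each. The other 5, ELF5, GCM1, EPAS1, VGLL1 and PGF, had none. A shared region was defined as replicate positions within 100 bp of each other. By the same rule 47.5% of all protein-coding genes had at least 1 shared region, so 5 of 10 was close to the background and is not a result about these markers. At least 2 regions were found at 17.1% of genes and at least 3 at 5.8%. In all, 9 of the 9145 shared regions lay in the windows of the markers. Replicate 1 listed 18 positions in these windows, of which 9 were shared, 50% (95% Wilson interval 29.0 to 71.0). Replicate 2 listed 11, of which 9 were shared, 81.8% (95% Wilson interval 52.3 to 94.9). Over all chromosomes the shares were 49.6% of 18456 positions and 71.5% of 12782, inside both intervals. These intervals cover counting error over positions only, and the read depth behind a position is unknown.

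**Figure D1:**
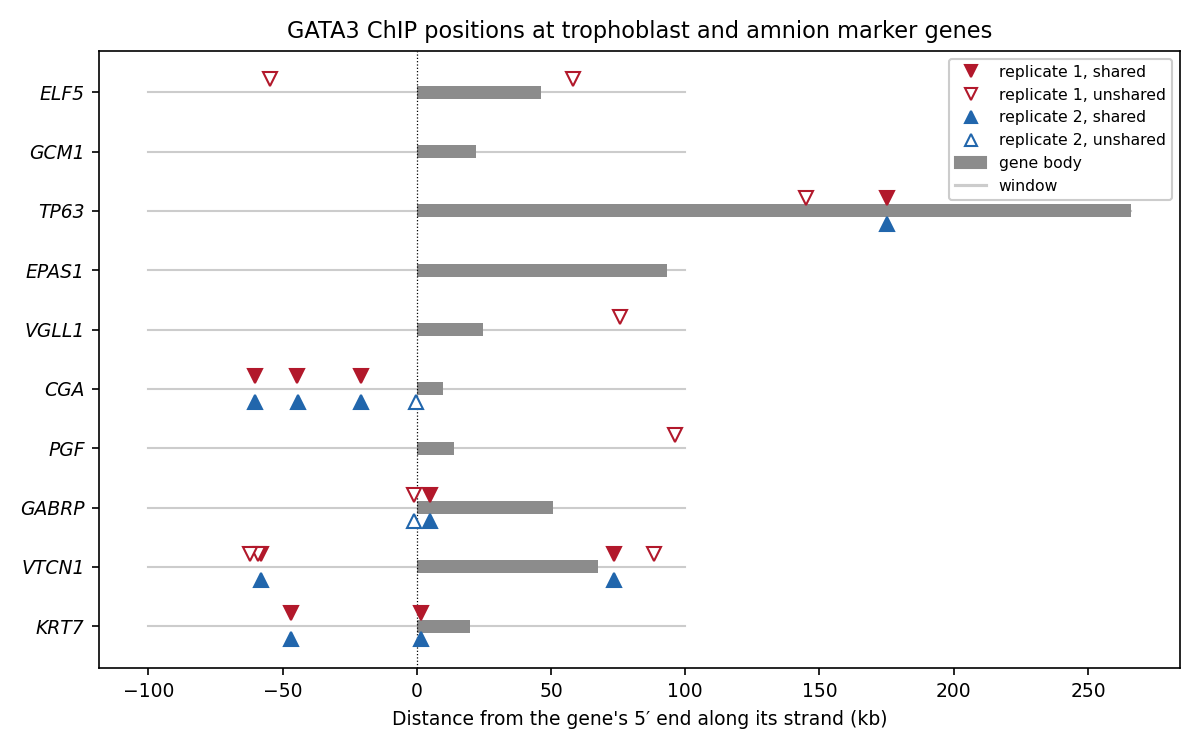
Positions of GATA3 ChIP replicate 1 (red, above each line) and replicate 2 (blue, below) at the 10 markers, by distance in kb from the gene's 5′ end along its strand, with filled symbols for positions shared within 100 bp, grey bars for gene bodies and grey lines for the window. Shared positions appear at TP63, CGA, GABRP, VTCN1 and KRT7, open symbols alone at ELF5, VGLL1 and PGF, and no symbol at GCM1 or EPAS1.

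**Figure D2:**
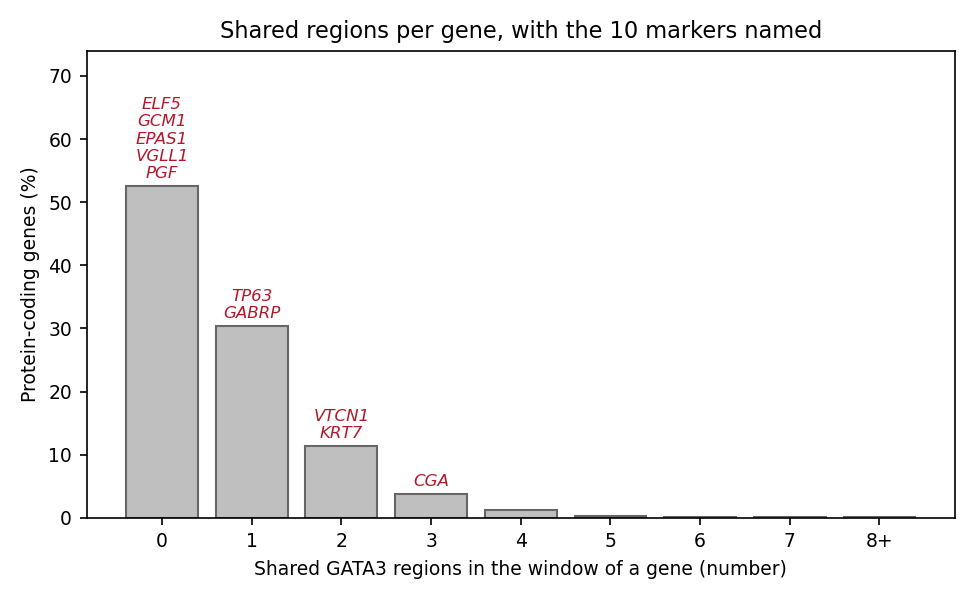
Percentage of the 20033 protein-coding genes (vertical axis) with each number of shared GATA3 regions in the window (horizontal axis), with the markers named above the bar they belong to. Of the markers, 5 stand above the bar for 0 regions and CGA stands furthest right, at 3.

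The transcription factors and VGLL1 are described first. TP63 encodes p63, a factor of stratified epithelia and of villous cytotrophoblast, and occupies 189631389 to 189897276 of chromosome 3 (plus strand) in hg38. Its shared region was at 189806389 in replicate 1 and 189806416 in replicate 2, 27 bp apart, in intron 3 and 175 kb downstream of the gene's 5′ end. TP63 has an upstream promoter, which gives the TAp63 forms, and an internal one, which gives the ΔNp63 forms. Of its 12 protein-coding transcripts in GENCODE, 5 started no more than 0.127 kb into the gene and 7 at internal starts, and the shared region lay between 16.6 and 16.7 kb downstream of the internal ones. Replicate 1 had a further position at 189776551, 145 kb into the gene, whose nearest replicate 2 position was 29865 bp away. The TP63 window counted because the gene body was included, and with 100 kb on either side of the 5′ end alone TP63 had no shared region. Among the 1502 protein-coding genes longer than 200 kb, 75.7% had a shared region in their window. The sequence of the TP63 region is shown because its only WGATAR match, read on the minus strand, was centred 0 bp from the mean of the replicate positions. The sources used here do not say whether a position is the summit or the midpoint of its peak, so distances to a motif are distances to the listed positions. Here and below, windows are the 200 bp of hg38 around the centre on the plus strand, with WGATAR matches in capitals.

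TP63 intron 3, chr3:189806303-189806502: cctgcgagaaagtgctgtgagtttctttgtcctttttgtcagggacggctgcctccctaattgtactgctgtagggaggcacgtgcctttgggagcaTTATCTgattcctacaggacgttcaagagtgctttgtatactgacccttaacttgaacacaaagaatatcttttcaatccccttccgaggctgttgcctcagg

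ELF5, an ETS family factor of trophoblast stem cells, occupies 34478791 to 34525193 of chromosome 11 (minus strand). Replicate 1 had 2 positions in its window, 34467053 at 58.1 kb downstream of the 5′ end and 34579819 at 54.6 kb upstream, and replicate 2 had 0. The nearest shared region lay just outside the window, 103 kb from the 5′ end. Measured from the canonical transcript, which starts 11.4 kb further in, that region was 91.6 kb away, so ELF5 gained it under that definition. GCM1, a driver of syncytiotrophoblast formation, occupies 53126961 to 53148841 of chromosome 6 (minus strand) and had 0 positions in either replicate. Its nearest shared region was 200.1 kb upstream. EPAS1 encodes HIF-2α, a subunit of the hypoxia-inducible factor, and occupies 46293667 to 46386697 of chromosome 2 (plus strand). It also had 0 positions in either replicate, and the nearest position was 225 kb upstream in replicate 1 and 226 kb in replicate 2. An empty window in both lists was found for 27.6% of protein-coding genes, against 2 of the 10 markers. VGLL1, on chromosome X from 136532215 to 136556807 on the plus strand, had 1 position, 136607782 in replicate 1, 75.6 kb downstream of the 5′ end and 297159 bp from the nearest replicate 2 position. All 3 positions at ELF5 and VGLL1 were therefore seen in replicate 1 only, the longer list.

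CGA encodes the α subunit shared by chorionic gonadotropin and the pituitary glycoprotein hormones. It occupies 87085498 to 87095106 of chromosome 6 (minus strand). All 3 of its shared regions lay upstream, at 20.8, 44.4 and 60.4 kb from the 5′ end, within a stretch of 39.6 kb. The nearest region was at 87115924 in replicate 1 and 87115884 in replicate 2, 40 bp apart, in intergenic sequence with CGA as the nearest protein-coding gene. The middle one was at 87139535 and 87139506, and the far one at 87155468 and 87155493. These were nearer to ZNF292, a zinc finger gene transcribed away from CGA. The far region was 0.0845 kb upstream of the canonical start of ZNF292, so it lay at that gene's promoter. The nearest region is printed for its 3 WGATAR matches in 200 bp, the last 2 overlapping. At least 3 matches were present at 8.78% of all shared regions.

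CGA upstream, chr6:87115805-87116004: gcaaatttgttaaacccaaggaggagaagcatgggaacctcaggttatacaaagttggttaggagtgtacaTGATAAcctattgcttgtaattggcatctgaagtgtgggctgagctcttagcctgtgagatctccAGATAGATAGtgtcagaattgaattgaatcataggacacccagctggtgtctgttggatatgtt

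Replicate 2 also listed a position at the CGA promoter itself, 87095263, which was 157 bp upstream of the 5′ end and which the authors named CGA. Replicate 1 had no counterpart, since its nearest position was 20661 bp away. The position was not shared and is given as a value of 1 replicate. The promoter is printed because it carries tandem copies of the cyclic AMP response element TGACGTCA, well known from this gene, beside an AGATAA. The AGATAA was at 87095257 to 87095262, 3.5 bp from the replicate 2 position, and the 2 copies of TGACGTCA began 142 and 124 bp upstream of the start. In the 250 bases upstream of 35116 RefSeq promoters, WGATAR was found on either strand in 22.3%, TGACGTCA in 1.65% and both in 0.191%. The pair was counted because CGA carries it. For the markers 1 RefSeq promoter per gene was searched, so the counts do not cover every start of genes such as TP63 and GABRP. Among the other markers' promoters, VGLL1 also held 1 WGATAR, and ELF5, GCM1, TP63, EPAS1, PGF, GABRP and VTCN1 held 0. None of these held TGACGTCA, and the KRT7 promoter was not searched. The CGA sequence, from RefSeq on GRCh38.p14, runs 5′ to 3′ along the minus strand. It ends at the base before the start, with both motifs in capitals.

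CGA promoter, chr6:87095107-87095356: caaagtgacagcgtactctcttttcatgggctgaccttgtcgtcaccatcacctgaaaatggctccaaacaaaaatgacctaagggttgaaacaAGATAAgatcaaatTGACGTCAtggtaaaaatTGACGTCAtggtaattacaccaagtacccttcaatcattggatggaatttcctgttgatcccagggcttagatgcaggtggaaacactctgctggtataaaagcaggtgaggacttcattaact

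PGF encodes placental growth factor, a ligand of the VEGF family, and occupies 74941834 to 74955626 of chromosome 14 (minus strand). Its only position was 74859406 in replicate 1, 96.2 kb downstream of the 5′ end and close to the limit of the window, and the authors named it PROX2. The nearest shared region was 193 kb from the 5′ end. At CGA, by comparison, replicate 1 listed 3 positions and replicate 2 listed 4, which made up 3 shared regions and 1 unshared position. The middle and far of these regions were nearer to ZNF292.

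GABRP and VTCN1 are used as amnion markers. GABRP encodes the π subunit of the GABA type A receptor and occupies 170763350 to 170814047 of chromosome 5 (plus strand), but its canonical transcript starts 20.4 kb further in. Its shared region was at 170768381 in replicate 1 and 170768403 in replicate 2, 22 bp apart. That is 5.04 kb downstream of the gene's 5′ end and 15.3 kb upstream of the canonical start, inside the gene and inside intron 2 of a long noncoding RNA. Measured from the 5′ end, 5.9% of protein-coding genes had a nearer shared region. A region within 12.6 kb of the 5′ end was found for 9.9% of genes and within 15.8 kb for 11.6%. These shares use the 5′ end of the gene record, so they are not a background for the distance from the canonical start. A second pair lay upstream of the 5′ end, 170762464 in replicate 1 and 170762274 in replicate 2. The members of the pair were 190 bp apart and so unshared at 100 bp, but they joined at 250 bp. All 4 positions were named GABRP by the authors, and the next position in either list was 306 kb from the 5′ end. The shared region is printed for its AGATAA, 1.5 bp from the centre.

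GABRP, chr5:170768293-170768492: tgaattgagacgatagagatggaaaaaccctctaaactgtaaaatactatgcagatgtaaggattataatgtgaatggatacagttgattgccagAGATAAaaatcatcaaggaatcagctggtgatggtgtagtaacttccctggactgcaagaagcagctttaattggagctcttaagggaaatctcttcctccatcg

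VTCN1 encodes B7-H4, an immune checkpoint ligand. It occupies 117143587 to 117210960 of chromosome 1 (minus strand). Replicate 1 had 5 positions in the window and replicate 2 had 2, both shared. The shared region upstream was at 117269148 and 117269139, 9 bp apart and 58.2 kb from the 5′ end. The one downstream was at 117137523 and 117137530, 7 bp apart, 73.4 kb from the 5′ end of VTCN1 and 14.9 kb upstream of TRIM45, its nearest protein-coding gene. The 3 positions of replicate 1 alone were 117122586, 117269973 and 117273117. The last 2 were 834 and 3978 bp from the nearest replicate 2 position, which was the upstream shared one, so replicate 1 had 3 positions there and replicate 2 had 1. The upstream region is printed as an example with 0 WGATAR matches although the replicates were only 9 bp apart.

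VTCN1 upstream, chr1:117269044-117269243: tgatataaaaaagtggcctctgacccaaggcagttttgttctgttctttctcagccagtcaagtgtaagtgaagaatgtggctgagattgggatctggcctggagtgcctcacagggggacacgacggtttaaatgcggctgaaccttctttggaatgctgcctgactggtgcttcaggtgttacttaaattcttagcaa

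KRT7 encodes keratin 7, a filament protein used to stain trophoblast, and occupies 52232520 to 52252186 of chromosome 12 (plus strand). It had the shared region nearest to a 5′ end among the 10 markers. The positions were 52234116 in replicate 1 and 52234109 in replicate 2, 7 bp apart, in intron 1, 1.59 kb downstream of the gene's 5′ end and 0.87 kb downstream of the canonical start. A nearer shared region was found for 3.19% of protein-coding genes. This window held 0 WGATAR matches, 0 copies even of the core GATA, and 66.5% G and C. The second region was at 52185787 and 52185752, 46.8 kb upstream of KRT7 in intron 1 of KRT80, a type II keratin gene, and 6.24 kb from the 5′ end of that gene. Its window overlapped an annotated exon of KRT80 and held an AGATAA 6 bp from the centre. The regions are printed together because they differ in the motif.

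KRT7 intron 1, chr12:52234013-52234212: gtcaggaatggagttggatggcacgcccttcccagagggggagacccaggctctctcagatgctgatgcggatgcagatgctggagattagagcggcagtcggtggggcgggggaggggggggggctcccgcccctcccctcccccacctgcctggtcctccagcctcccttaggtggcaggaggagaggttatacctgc

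KRT80 intron 1, chr12:52185670-52185869: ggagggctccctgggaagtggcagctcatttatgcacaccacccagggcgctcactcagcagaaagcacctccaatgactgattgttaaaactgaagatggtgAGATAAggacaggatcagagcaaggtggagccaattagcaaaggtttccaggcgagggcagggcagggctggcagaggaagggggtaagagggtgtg

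The regions at the markers were then described together. WGATAR was in 7 of the 9 windows, 77.8% (95% Wilson interval 45.3 to 93.7), against 82.0% of all 9145 shared regions. In the 10716 tiles of 200 bp that covered the markers' windows and lay more than 500 bp from any position, it was in 34.3%. The strict AGATAA was in 3 of 9, at TP63, GABRP and KRT80, and in these 3 it lay within 6 bp of the centre. It was in 51.6% of all shared regions and 13.99% of the tiles. In the regions downstream of VTCN1 and at the ZNF292 promoter the match was 69 bp from the centre, and in the others with a match it was 25.5 and 26 bp away. The median over the 7 was 25.5 bp, and over all shared regions with a match 18 bp. The replicates were 7 to 40 bp apart with a median of 25 bp, against 23 bp over all shared regions. GC content ran from 36.5% in the middle region of CGA to 68% at the ZNF292 promoter, with a median of 47% against 44%. Of the 11 unshared positions, 7 had WGATAR, 5 of 9 in replicate 1 and 2 of 2 in replicate 2.

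**Figure D3:**
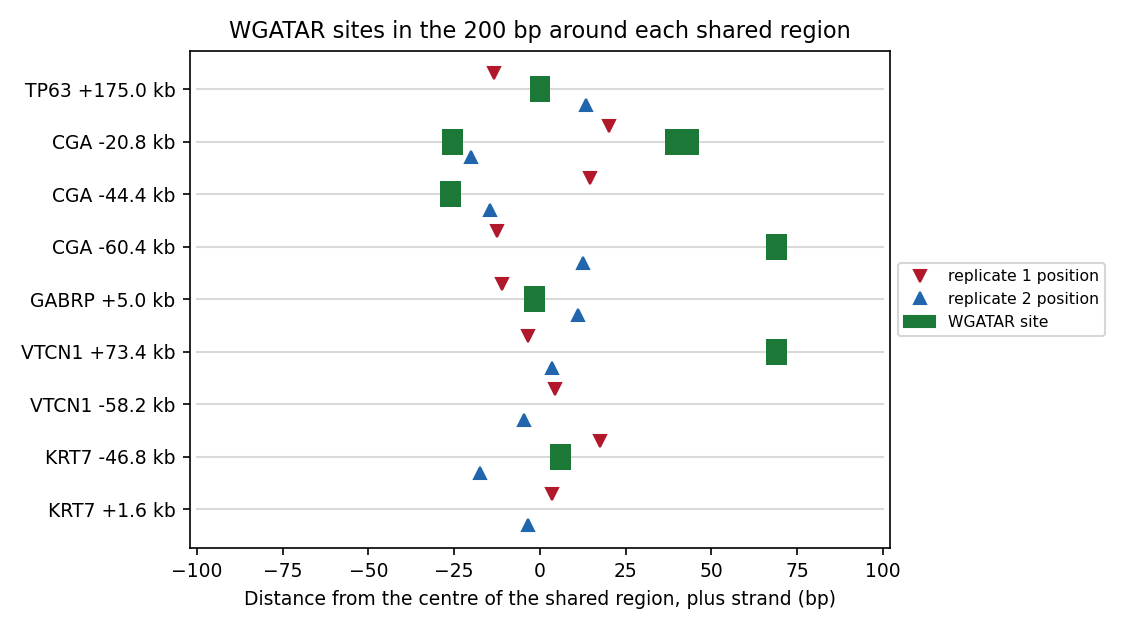
WGATAR matches (green) and the positions of replicate 1 (red) and replicate 2 (blue) in the 200 bp around the 9 shared regions, by distance in bp from the centre on the plus strand, with regions named by marker and distance from its 5′ end. At TP63, GABRP and the far KRT7 region a match lies between the replicate positions, and the upstream VTCN1 and intron 1 KRT7 regions have none.

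Other recognition sequences were sparse, and 9 windows give little precision. GGAATG, bound by TEAD factors, was in 2 of 9, at KRT7 intron 1 and upstream of VTCN1, and in 18.9% of all shared regions. TGANTCA, a loose form of the AP-1 site TGA(C/G)TCA with any base at N, was in 1 of 9, upstream of CGA, and in 8.88%. The match upstream of CGA read TGAATCA, which is not the strict AP-1 site. GTCTG, the SMAD element, was in 1 of 9, also upstream of CGA, and in 36.1%. ACAANGG, bound by SOX factors, and GGCGCC, bound by SMAD1 and SMAD5, were each in 1 of 9, at the ZNF292 promoter, and in 15.7% and 1.96% of all shared regions. The AP-2 sequence GCCNNNGGC and the octamer ATGCAAAT were in 0 of 9, where 0 allows up to 29.9% (95% Wilson upper bound), and were in 4.21% and 5.1% of all shared regions. All were searched on both strands.

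A wider list of 58 other trophoblast and amnion genes was examined in the same way. It was drawn up with earlier results of these data known, and for some of its genes, such as GATA3, CDX2 and ISL1, binding was already known, so its counts are a description. Of the 58, 34 had a shared region in the window, 58.6% against 47.5% of protein-coding genes. Within 10 kb of the 5′ end 20 of 58 had one, 34.5% against 8.69%, and 2 of the 10 markers did, GABRP and KRT7. Measured from the canonical start, the GABRP region was 15.3 kb away and KRT7 alone remained. The 20 genes drew on 19 distinct regions, 15 of them with WGATAR, because KRT8 and KRT18 shared 1.

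The transcription regulators held 9 of these 20. Of the 19 regulators, 12 had a region in the window, 63.2% against 47.5% of protein-coding genes. TFAP2A, an AP-2 factor, had 7 regions in its window with the nearest 0.122 kb upstream, GATA2 had 9, GATA3 itself had 6, and TBX3 had 4. The nearest region was 0.112 kb upstream at CDX2, a caudal factor of trophectoderm, 0.264 kb downstream at NR2F2, 1.05 kb upstream at TEAD4, 4.18 kb downstream at TEAD3 and 7.46 kb downstream at DLX5. TFAP2C, HAND1, MSX2, PPARG, OVOL1, ARID3A and ASCL2 had no shared region in the window.

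Of 14 genes for syncytiotrophoblast products, 2 had a region within 10 kb, 14.3% against 8.69% of protein-coding genes. In the window 6 had one, 42.9% against 47.5%. ERVFRD-1, which encodes the fusion protein syncytin-2, had a region 0.288 kb upstream (chromosome 6, 11112005 in replicate 1 and 11112020 in replicate 2), with 1 WGATAR, and GDF15 had one 9.63 kb upstream. ERVW-1, which encodes syncytin-1, had 0 positions in either replicate. CGB3, CGB5, CGB8 and LHB, which encode β subunits of chorionic gonadotropin and luteinising hormone and so partners of CGA, were at 0 in either replicate, and their nearest shared region, the same one for all 4, was 393 to 425 kb away. These genes lie in 1 cluster of near-identical copies on chromosome 19, and the authors left out reads that mapped to several places. What part this had in the counts of 0 was not tested.

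All 3 epithelial keratins, KRT8, KRT18 and KRT19, had a region within 10 kb, as KRT7 did, against 8.69% of protein-coding genes. The list was drawn up with earlier results known, and KRT8 and KRT18 were counted through 1 region. The region that KRT8 and KRT18 shared (chromosome 12, 52945661 and 52945675) was inside the KRT8 gene record but outside its canonical transcript, 4.29 kb downstream of the 5′ end of KRT8 and 3.2 kb upstream of that of KRT18, and the KRT19 region was 2.08 kb upstream. The region of KRT8 and KRT18 held 0 WGATAR, as did that in KRT7 intron 1, and the KRT19 region held 3. Among 11 markers of extravillous trophoblast or the trophoblast surface 7 had a region in the window and 2 within 10 kb, CDH1 at 4.37 kb upstream and ITGA6 at 7.74 kb downstream. HLA-G, a marker of extravillous trophoblast, had 0 positions. Among 11 amnion markers 6 had a region in the window and 4 within 10 kb, where the shares over protein-coding genes were 47.5% and 8.69%. The nearest was 0.0395 kb upstream at ISL1, 0.102 kb upstream at CDH10, 3.29 kb upstream at WNT6 and 7.82 kb downstream at BAMBI.

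The order of the 10 markers by their nearest shared region was KRT7, GABRP, CGA, VTCN1, ELF5, TP63, PGF, GCM1, VGLL1 and EPAS1, from 1.59 to 278 kb. Their median distance was 139 kb, against 118 kb over all protein-coding genes and 53.0 kb over the 58 other genes. For CGA, next after KRT7 and GABRP, 14.2% of genes had a nearer region, and at the far end 78.4% of genes had a nearer region than EPAS1. Of the 9 shared regions, 5 had the marker itself as nearest protein-coding gene and 4 had ZNF292, TRIM45 or KRT80.

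**Figure D4:**
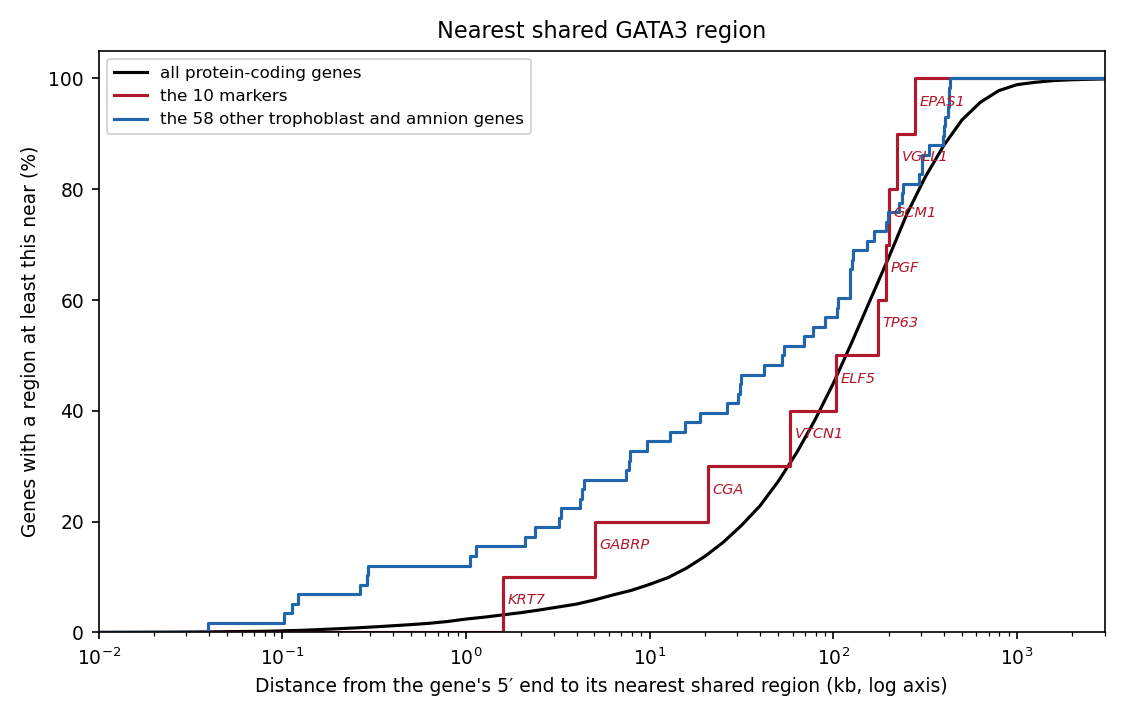
Cumulative percentage of genes (vertical axis) whose nearest shared GATA3 region lies within a given distance of the 5′ end (horizontal axis, kb, log scale), for all protein-coding genes (black), the 58 other trophoblast and amnion genes (blue) and the 10 markers (red, named at their step). The red steps lie left of the black curve at KRT7, GABRP and CGA near it from VTCN1 to PGF and left of it again for GCM1, VGLL1 and EPAS1, while the blue line lies left of the black one up to 200 kb.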

How the data were processed

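GATA3 ChIP-seq peak lists of 2 replicates of H1 hESCs treated with BMP4 were used. The authors used cutadapt for trimming, bowtie for alignment (hg38) and Picard for duplicate removal. They left out ENCODE blacklisted regions and reads with several mapping places. MACS2 then called peaks per replicate over its input (q threshold 0.05). The deposited files gave 1 base position and 1 gene name per peak, with no height, width or q-value. The sources used here do not say if bases were numbered from 0 or 1, and each position may be off by 1 bp. Positions listed for more than 1 gene were counted once. Replicate 1 then held more positions, and replicate 2 fewer, than the peaks stated in the study's methods; the reason is not given in the sources used here.

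Positions on 24 chromosomes (the autosomes, X and Y) were set against GENCODE release 44, which is on the authors' build. The 5′ end was that of the gene record. Replicate positions within 100 bp were linked into shared regions centred on their mean. Every position carrying a marker's name also lay in its window. Motif windows were read from hg38, and promoters from RefSeq. No test was made: the design has 1 ChIP condition. The markers and the further list of 58 genes were chosen with earlier results of these data known. All 10 markers were described with every position. The other genes were named where a shared region lay within 10 kb. The regulators without a region in the window were also named, as were ERVW-1, CGB3, CGB5, CGB8, LHB and HLA-G as examples. The rest were counted by role. Of the 58 genes, 14 had no position in either replicate, as did 27.6% of all protein-coding genes. The code for linking, windows and motifs was tested on simulated data. Python 3.11.15, numpy 2.4.6, scipy 1.17.1, pysam 0.24.0 and matplotlib 3.10.9 were used. Alternatives to the distance, window, start site, motif and replicate were tried.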

Additional observations from a re-analysis of the deposited data

How the results depend on the processing

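The limits of these values are the short lists of positions, the lack of peak heights and of an untreated ChIP, and a window rule that also takes in regions nearer to other genes. No paired analysis was possible because only the ChIP group had peak lists to compare and no test was made. Of 75 recomputed values, 70 stayed within 1.5 times the count, within the 95% interval of a share at the markers, or within the spread between replicates. Some of these could not move, since every position carrying a marker's name already lay in its window. The share of protein-coding genes with a region was always among the 70, although it ran from 32.3% to 68.5% around 47.5%. The 5 that moved were the number of markers, the number of positions and the median distance with replicate 1 alone, the replicate 1 share with windows of 50 kb, and the AGATAA share. The spread for the median distance, 51.0 kb, came from the 1-replicate values it was set against. With motif windows of 100 bp the WGATAR share was 55.6%, still inside its wide interval of 45.3 to 93.7%. Using 1 replicate at a time, from 5 to 8 markers had a position, from 11 to 18 positions lay at the markers, and the median distance of the nearest one was 66.9 to 139 kb. The higher counts and the lower distance came from replicate 1 alone, with ELF5, VGLL1 and PGF added, and 68.5% of protein-coding genes then had a position, against 57.2% with replicate 2 alone. The share of replicate 1 positions found in replicate 2 was 75% with windows of 50 kb. With AGATAA alone the motif share was 33.3%. Shared regions at the markers numbered 9 at 50 bp and 10 at 250 and 500 bp. The markers with one were 5 at each of these distances, against 41.3%, 50.2% and 50.7% of protein-coding genes. With windows of 50 kb they were 4, against 32.3% of genes, and with windows of 200 kb 7, against 68.3%. From the canonical start they were 6, against 47.3%.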
